A study of Mus musculus with 6 samples.

Results

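Histone deacetylases of classes I and II are zinc-dependent enzymes that remove acetyl groups from lysines of histones and other proteins. The 10 mouse genes Hdac1 to Hdac10 were described here, each through the row of the array whose annotation names that gene alone. Every one of the 10 had exactly 1 such row among 41345 rows, which stood for 22180 genes in all, and no row named a member together with another gene.

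The RNA came from C57BL/6J mice, an inbred laboratory strain, and was measured as log2 expression on 6 Affymetrix whole-transcript arrays. In the ethanol group, newborn males received 2.5 g/kg ethanol in 0.15 M NaCl under the skin, and in the saline group sex- and weight-matched littermates received saline. Both groups had 2 injections, 2 hours apart, on postnatal days 4 and 7, and no mutation or other agent is labelled. Each group had 3 arrays, and each array held a pool of 3 mice, so a value is an average over animals and over all cells of the dissected tissue. The labels call the tissue whole hippocampus and give 2 ages, 21 days in the sample characteristics and day 70 in the treatment protocol.

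Acetylation of histone tails loosens chromatin and is read by bromodomain proteins, and deacetylases reverse it. Class I enzymes (Hdac1, Hdac2, Hdac3 and Hdac8) are largely nuclear, and apart from Hdac8 they work within corepressor complexes. Class IIa enzymes (Hdac4, Hdac5, Hdac7 and Hdac9) have weak deacetylase activity of their own, bind MEF2 transcription factors, and move between nucleus and cytoplasm when calcium-dependent kinases phosphorylate them. Class IIb holds Hdac6, the cytoplasmic deacetylase of tubulin, and Hdac10, a polyamine deacetylase. In the hippocampus of mice, Hdac2 is known as a brake on memory formation and synapse number.

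The members differ in sequence before their annotated transcript starts, a feature that did not enter their choice. Windows of the 250 bases before an annotated start were read from RefSeq sequence on build GRCm38.p6 for 7 of the 10 genes, in 11 windows. Hdac1 and Hdac10 had no window in the sources used here, and Hdac3 was left out by choice. Shown are Hdac2 beside Hdac8 in class I and Hdac5 beside Hdac9 in class IIa, because they span the range of CG dinucleotides, the sites of DNA methylation, which are in capitals. The windows lie at chr10:36974294-36974543 on the plus strand for Hdac2, and on the minus strand at chrX:102505159-102505408 for Hdac8, chr11:102230173-102230422 for Hdac5 and chr12:34917096-34917345 for Hdac9. The Hdac2 and Hdac8 windows lie mostly inside the gene spans given below and precede an internal start, whereas those of Hdac5 and Hdac9 lie just outside the spans.
Hdac2: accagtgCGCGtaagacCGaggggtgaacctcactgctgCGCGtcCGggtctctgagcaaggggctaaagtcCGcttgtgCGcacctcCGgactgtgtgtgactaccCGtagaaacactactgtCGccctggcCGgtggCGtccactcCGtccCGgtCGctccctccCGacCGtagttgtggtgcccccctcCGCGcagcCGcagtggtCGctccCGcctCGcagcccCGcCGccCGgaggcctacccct
Hdac8: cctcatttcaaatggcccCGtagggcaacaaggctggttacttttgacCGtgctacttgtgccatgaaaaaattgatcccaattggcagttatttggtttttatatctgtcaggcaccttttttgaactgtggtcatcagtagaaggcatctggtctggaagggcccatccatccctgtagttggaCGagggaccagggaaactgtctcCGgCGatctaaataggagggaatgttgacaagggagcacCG
Hdac5: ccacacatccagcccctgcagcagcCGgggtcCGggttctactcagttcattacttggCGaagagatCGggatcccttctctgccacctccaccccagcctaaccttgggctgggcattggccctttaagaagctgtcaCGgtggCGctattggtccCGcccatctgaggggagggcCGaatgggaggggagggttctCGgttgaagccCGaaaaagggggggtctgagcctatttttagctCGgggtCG
Hdac9: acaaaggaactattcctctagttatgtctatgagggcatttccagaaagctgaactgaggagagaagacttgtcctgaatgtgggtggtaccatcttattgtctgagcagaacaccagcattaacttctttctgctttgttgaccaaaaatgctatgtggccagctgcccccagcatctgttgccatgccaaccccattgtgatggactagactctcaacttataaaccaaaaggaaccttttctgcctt

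The Hdac2 window held 27 CG dinucleotides and the Hdac8 window 6, against a median of 6 over all 32851 windows of the table. The Hdac5 window held 12, and the Hdac9 window shown held 0, with 2 in the window at its other start. Hdac4 had 23 and Hdac6 had 17, and the 4 Hdac7 windows ran from 5 to 25. The consensus site of MEF2 factors, taken as CTA, a run of 4 bases that are each A or T, and TAG, reads the same on both strands. It was found in 1 member, Hdac5, beginning 20 bases before the start, and occurs in 0.508% of all windows. The letters GGGCGG, the core of a GC box, were found on either strand in windows of Hdac2, Hdac4, Hdac5, Hdac6 and Hdac7. They occur in 32.7% of all windows, a share by window that cannot be set against a count of genes, as Hdac7 has 4 windows. These matches overlap no other motif searched and describe letters, not occupied sites, and no binding was measured.

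The arrays themselves were checked first. Array medians lay between 6.55 and 6.66. Markers of hippocampal and other telencephalic neurons stood on both sides of the median row level of 6.60. Near or below it were Neurod6 at 6.76, Emx1 at 6.39, Tbr1 at 5.74 and Emx2 at 5.28. So were the dentate granule cell markers Lct at 6.71, Dsp at 6.43 and C1ql2 at 6.47. Above it were Camk2a at 9.76, Bcl11b at 7.27 and the dentate marker Prox1 at 8.18. The CA1 markers also lay above it, with Wfs1 at 8.72, Man1a at 8.20, Fibcd1 at 7.26 and Pou3f1 at 6.89. Genes of the CA3 and CA2 list ran from 6.16 to 7.79. The cerebellar granule cell markers Gabra6 and Cbln3 stood at 12.17 and 12.11, and that list ran from 8.12 to 12.17. The Purkinje cell markers Car8 and Slc1a6 stood at 12.44 and 10.34. Probes differ in binding, so these levels do not rank transcripts, and the share of hippocampal RNA in the pools was not tested. All values below are those of the deposited RNA, whatever its regional makeup, and fewer cells of a type and less RNA per cell cannot be told apart.

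Ethanol was set against saline to ask if deacetylase genes were expressed at another level weeks after neonatal exposure. No member passed the test. As deposited, 9 of the 10 genes had a higher mean in ethanol, with a median log2 difference of 0.07, but after quantile normalization or cyclic loess between arrays 7 of 10 did, and the signs of Hdac2 and Hdac4 turned. Of all 22180 genes, 57.2% had a higher mean in ethanol as deposited, with a median difference of 0.02, and of the 8464 genes whose level lay between those of the dimmest and the brightest member 72.3% did, with a median difference of 0.05. The largest difference was 0.16 and the lowest -0.04, and in every member the 2 groups of arrays overlapped.

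Limma called 0 of 41345 rows at a Benjamini-Hochberg adjusted p under 0.05, a share of 0%, and so 0 of the 10 members. At an unadjusted p under 0.05 limma had 2290 rows, 5.54% of all, and 0 of the 10 members. Of those rows, 816 were higher and 1474 lower in ethanol, so that 35.6% were higher as deposited, 57.3% after centring each array on its median and 48.5% after quantile normalization. Groups did not overlap in 11.1% of all rows and in 10.5% of the genes. An exact permutation test of 3 arrays against 3 cannot give a two-sided p under 0.1.

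**Figure D1:**
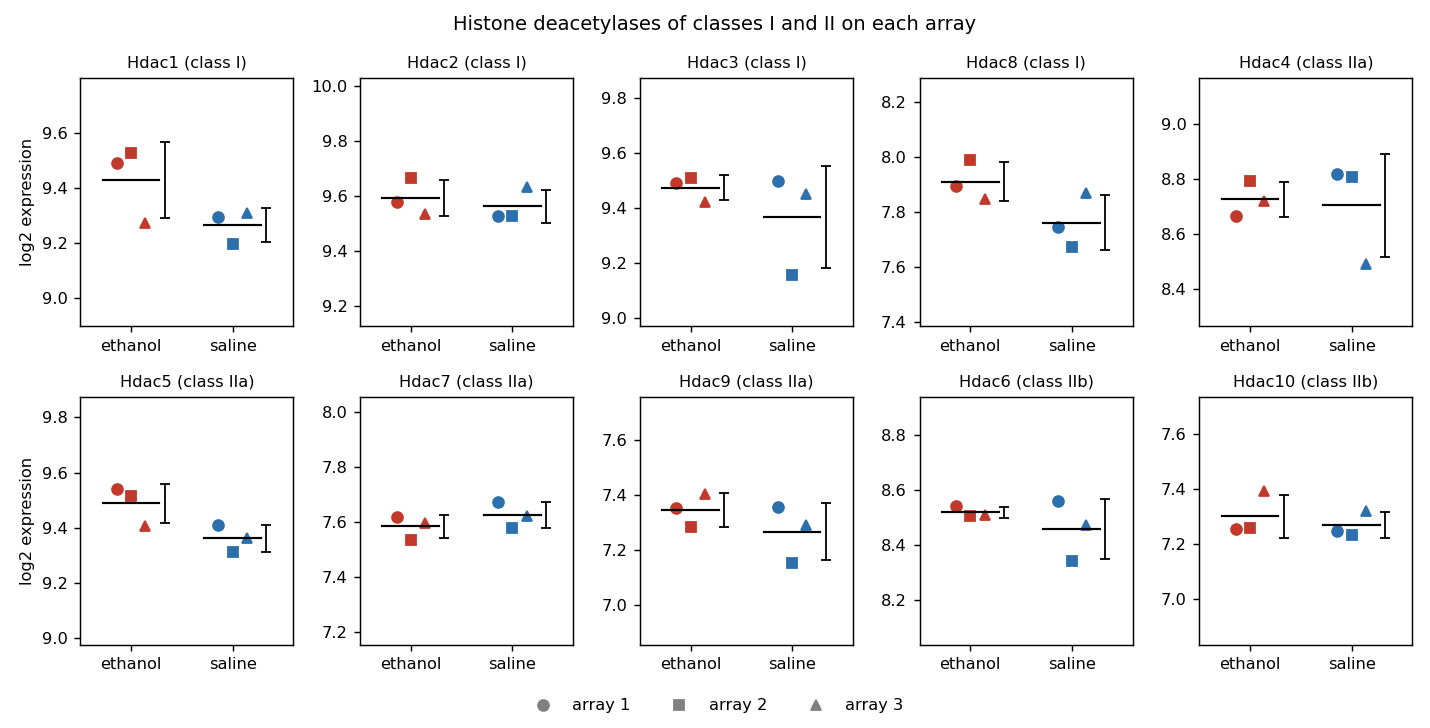
Log2 expression of each deacetylase gene, with ethanol arrays in red on the left and saline arrays in blue on the right of each panel, and the symbol marking the array number. Horizontal lines are group means, bars beside them are 1 SD (n = 3 each), and every panel spans the same log2 range around its gene's mean. The groups overlap in all 10 panels, and the lowest point is saline array 2 in 8 of them.

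Class I held the 2 genes with the largest differences of the family, Hdac1 and Hdac8, neither of them called. Hdac1, a catalytic subunit of the Sin3, NuRD and CoREST corepressor complexes (chr4:129516104-129542646 on GRCm38), had log2 values of 9.49, 9.53 and 9.27 in ethanol arrays 1 to 3 and 9.29, 9.20 and 9.31 in saline arrays 1 to 3. Ethanol arrays 1 and 2 stood above all saline arrays, whereas ethanol array 3 fell among them. The means were 9.43 ± 0.14 in ethanol and 9.27 ± 0.06 in saline (SD, n = 3 each), a difference of 0.16 ± 0.09 (SE) with an adjusted p of 0.857 in limma. Without ethanol array 3 the difference was 0.24, with an unadjusted p of 0.0378 and an adjusted p of 0.870 in limma. That was its highest value on leaving out 1 array, and the lowest was 0.11, without ethanol array 2. The difference of Hdac1 was 0.10 after quantile normalization and 0.09 after cyclic loess. RefSeq also lists a pseudogene copy of Hdac1, to which the probes may bind, so its values are uncertain to that extent.

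Hdac2, the close paralog of Hdac1 that shares its complexes (chr10:36974297-37001889), had 9.58, 9.66 and 9.54 in ethanol and 9.53, 9.53 and 9.63 in saline. All 6 arrays lay within 0.14 of each other, as did those of Hdac7, the narrowest ranges in the family. Its means were 9.59 ± 0.07 in ethanol and 9.56 ± 0.06 in saline (SD, n = 3 each), a difference of 0.03 ± 0.08 (SE; adjusted p = 0.954 in limma). Its difference was -0.04 both after quantile normalization and after cyclic loess. Whether Hdac1 and Hdac2 differ in their response was not tested.

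Hdac3, the catalytic subunit of the NCoR and SMRT corepressor complexes, had 9.49, 9.51 and 9.42 in ethanol and 9.50, 9.16 and 9.45 in saline. One array, saline array 2, stood apart from the other 5. The difference of 0.11 ± 0.11 (SE; adjusted p = 0.885 in limma) rested on that array, and without it was -0.000295. The group means were 9.47 ± 0.04 in ethanol and 9.37 ± 0.19 in saline (SD, n = 3 each).

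Hdac8, the class I enzyme that deacetylates the cohesin subunit Smc3 and is encoded on the X chromosome (chrX:102284638-102505381), had 7.90, 7.99 and 7.85 in ethanol and 7.74, 7.67 and 7.87 in saline. Saline array 3 stood above ethanol array 3, and the other saline arrays lay below all ethanol arrays. The means of 7.91 ± 0.07 in ethanol and 7.76 ± 0.10 in saline (SD, n = 3 each) gave a difference of 0.15 ± 0.09 (SE), with an adjusted p of 0.857 in limma. It was 0.14 after quantile normalization and 0.13 after cyclic loess, and 0.10 without saline array 2.

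**Figure D2:**
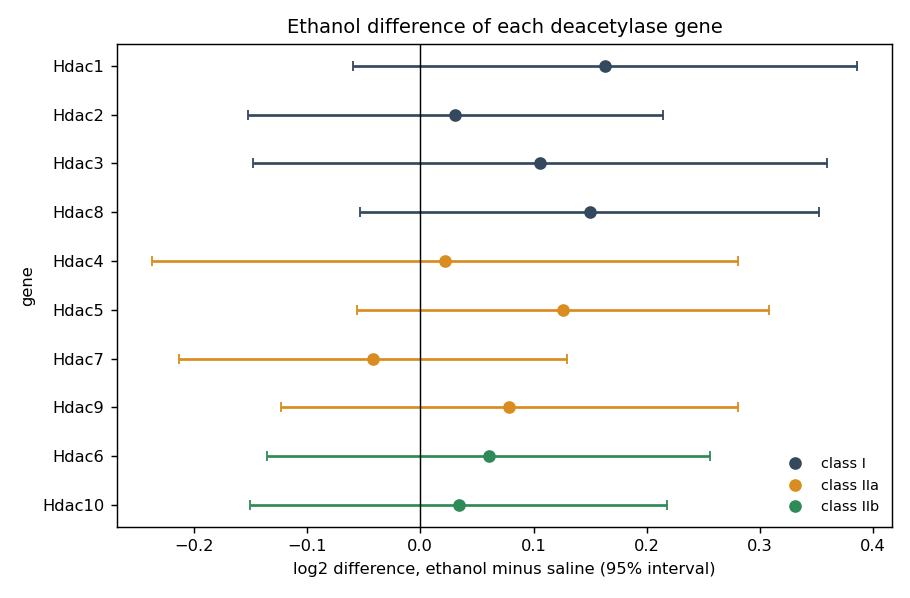
Log2 difference of each gene, ethanol minus saline, with its 95% interval from the limma fit, grouped by class from top to bottom. Every interval includes 0. As deposited 9 of the 10 points lie to the right of 0, against 7 of 10 after quantile normalization or cyclic loess.

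Class IIa genes lay on both sides of 0. Hdac5, a class IIa enzyme that leaves the nucleus on neuronal activity (chr11:102195747-102230172), came closest to separated groups, with 9.54, 9.52 and 9.41 in ethanol and 9.41, 9.31 and 9.36 in saline. Only ethanol array 3 and saline array 1 met, at nearly equal values. The means were 9.49 ± 0.07 in ethanol and 9.36 ± 0.05 in saline (SD, n = 3 each), a difference of 0.13 ± 0.08 (SE; adjusted p = 0.857 in limma). The difference was 0.06 after quantile normalization and 0.06 after cyclic loess.

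Hdac4, the MEF2 corepressor whose loss in mouse forebrain neurons is known to impair memory (chr1:91928779-92195702), had 8.67, 8.79 and 8.72 in ethanol and 8.82, 8.81 and 8.49 in saline. Saline array 3 was the lowest of the 6 and saline arrays 1 and 2 were the highest. The difference was 0.02 ± 0.11 (SE; adjusted p = 0.976 in limma), and the means were 8.73 ± 0.06 in ethanol and 8.71 ± 0.19 in saline (SD, n = 3 each). It was -0.09 without saline array 3 and 0.07 without saline array 2. Its sign therefore turned with the arrays used, and it was -0.03 under both quantile normalization and cyclic loess.

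Hdac7, best known from thymocytes and vascular endothelium (chr15:97792661-97844502), was the 1 member with a lower mean in ethanol. It had 7.62, 7.53 and 7.59 in ethanol and 7.67, 7.58 and 7.62 in saline. The difference of -0.04 ± 0.07 (SE; adjusted p = 0.934 in limma) was smaller than its standard error. Means were 7.58 ± 0.04 in ethanol and 7.62 ± 0.05 in saline (SD, n = 3 each), and the difference stayed at or below 0 in every setting tried, from -0.06 without saline array 2 to -0.00 after median centring.

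Hdac9, whose gene also makes a short form with no catalytic domain (chr12:34047580-34917095), had 7.35, 7.28 and 7.40 in ethanol and 7.36, 7.15 and 7.29 in saline. Saline array 2 was again the lowest. The difference was 0.08 ± 0.09 (SE; adjusted p = 0.894 in limma), from means of 7.34 ± 0.06 in ethanol and 7.27 ± 0.10 in saline (SD, n = 3 each). It was 0.02 without saline array 2. One row covers the gene, so its short and long forms were not separated.

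Both class IIb genes had small differences, with a median of 0.05, which was 0.01 without saline array 2. Hdac6, which deacetylates tubulin and cortactin and helps carry misfolded proteins (chrX:7930116-7948047), had 8.54, 8.50 and 8.51 in ethanol and 8.56, 8.34 and 8.47 in saline. The ethanol arrays lay close together inside the saline range. The difference was 0.06 ± 0.08 (SE; adjusted p = 0.916 in limma), from means of 8.52 ± 0.02 in ethanol and 8.46 ± 0.11 in saline (SD, n = 3 each), and 0.0022 without saline array 2.

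Hdac10 (chr15:89123303-89128700) had 7.25, 7.26 and 7.39 in ethanol and 7.25, 7.23 and 7.32 in saline. Array 3 was the highest in both groups. The difference was 0.03 ± 0.08 (SE; adjusted p = 0.950 in limma), and the means were 7.30 ± 0.08 in ethanol and 7.27 ± 0.05 in saline (SD, n = 3 each). Without ethanol array 3 it was -0.01.

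Intervals were taken from the fit of the values as deposited, each for 1 gene, without adjustment for the number of genes. They move with the scaling and the arrays used, as Hdac1 was at 0.20 after median centring. Over the family, the 95% intervals ran from a fold of 0.849 for Hdac4 at the low end to 1.31 for Hdac1 at the high end, ethanol over saline. For Hdac2 the interval was 0.900 to 1.16, and for Hdac5 it was 0.962 to 1.24. How far the authors' summarization compressed true folds is not given in the sources used here.

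Many members deviated the same way on the same array. Saline array 2 gave the lowest value of 8 of the 10 members, all but Hdac4 and Hdac7, and lay above the gene's own mean for 1 member. Its median deviation over the members was -0.13. Over the 8464 genes in the same range of levels its median deviation was -0.08, and 45.2% of them had their lowest value there. Ethanol array 2 gave the highest value of 4 members, Hdac1, Hdac2, Hdac3 and Hdac8, with a median deviation of 0.08 over the members, against 0.05 over the genes in the range.

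Without saline array 2, 8 of 10 members were higher in ethanol and their median difference was 0.02, and without saline array 1 it was 0.12. Without array 2 of both groups 7 of 10 were higher, with a median of 0.04, and Hdac1 stood at 0.08 and Hdac8 at 0.07. This last setting was chosen after the data were seen. The summed linear level of the 6 cerebellar granule cell markers was 16798 to 17210 over the ethanol arrays and 15753 to 15936 over the saline arrays, with 5 of 6 higher in ethanol. Of the 5 astrocyte markers 5 were higher in ethanol, with summed levels of 9357 to 10424 in ethanol and 8650 to 9381 in saline. The dimmest marker of the granule cell list stood at 8.12 and that of the astrocyte list at 8.84. Purkinje cell markers had 2 of 2 higher and oligodendrocyte markers 4 of 4. In the other lists fewer genes were higher in ethanol, at 2 of 4 for the dentate gyrus, 1 of 4 for CA1, 2 of 5 for CA3 and CA2, 2 of 6 for telencephalic pyramidal neurons and 2 of 5 for microglia. The CA1 list summed to 960 to 1027 in ethanol and 938 to 1053 in saline, and the CA3 and CA2 list to 691 to 708 in ethanol and 706 to 759 in saline. The part of these cells in the deacetylase values was not tested.

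**Figure D3:**
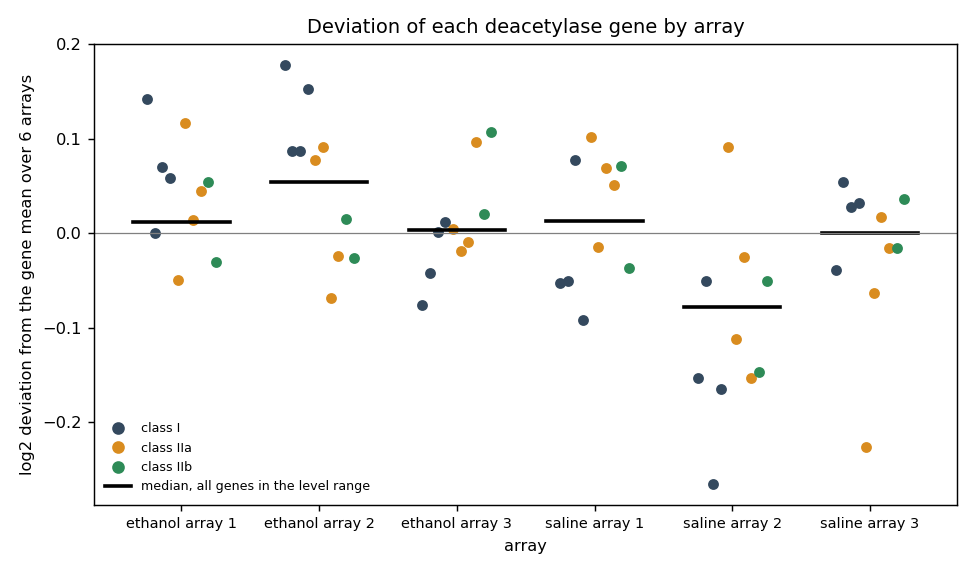
Log2 deviation of each member from its mean over the 6 arrays, by array, with colour for the class. Black lines are the medians of the 8464 genes in the members' range of levels. Most members lie below 0 on saline array 2, as does the black line at -0.08.

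**Figure D4:**
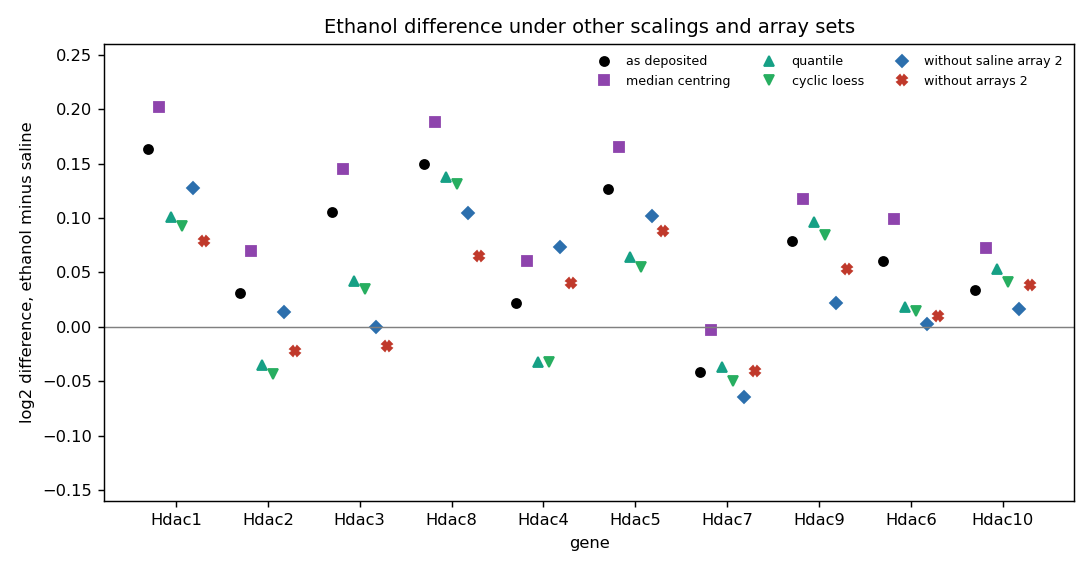
Log2 difference of each gene, ethanol minus saline, with the values as deposited and under 3 scalings and 2 smaller sets of arrays. Hdac2 and Hdac4 lie below 0 after quantile normalization and cyclic loess, Hdac3 is at 0 without saline array 2, and Hdac2 and Hdac3 lie below 0 without array 2 of both groups. Hdac1, Hdac5, Hdac6, Hdac8, Hdac9 and Hdac10 lie above 0 in all 6 settings drawn.

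Hdac3 had the widest range of the family over the arrays, 0.35. The genes whose centred values followed it most closely over the 6 arrays, among 13675 genes above the median row level, were Eif5, a translation initiation factor, Sfxn1, a mitochondrial serine transporter, and Ppp1r3e, a glycogen-targeting subunit of protein phosphatase. Their root mean square differences from Hdac3 were 0.0200, 0.0208 and 0.0219 on the log2 scale. Their lowest values, 9.89 for Eif5, 8.74 for Sfxn1 and 6.66 for Ppp1r3e, fell on saline array 2, as their choice for likeness to Hdac3 required.

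Genes that act with the deacetylases showed no called difference either. Limma called 0 genes in each of 6 lists. Of their 102 measured genes, 1 had an unadjusted p under 0.05, a share of 0.98% beside 5.54% of all rows. These shares are over unlike sets, as all rows include 16010 that name no gene here. The 1 gene was Baz1a, a bromodomain subunit of chromatin remodelling complexes. Baz1a had 6.27, 6.39 and 6.47 in ethanol and 6.50, 6.60 and 6.71 in saline, so the groups did not overlap. Its difference was -0.22 ± 0.09 (SE; adjusted p = 0.857 in limma), and its level was below the median row. Its unadjusted limma p of 0.0445 was 0.1003 after median centring, 0.0920 after quantile normalization and 0.0850 after cyclic loess. Leaving out ethanol array 1 or 2, or saline array 2 or 3, also took it past 0.05, to between 0.0826 and 0.148.

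Among the other deacetylases, Hdac11 and the 7 NAD-dependent sirtuins, 8 of 8 had a higher mean in ethanol as deposited, with a median of 0.08. After quantile normalization or cyclic loess 7 of 8 did. Histone acetyltransferases, the opposing enzymes, had 7 of 10 higher with a median of 0.08, and 6 of 10 under both of those scalings. Subunits of the class I corepressor complexes had 24 of 33 measured genes higher with a median of 0.05, and 17 of 33 under both. Leaving out 1 array, the median of the other deacetylases ran from 0.01 without saline array 2 to 0.12 without saline array 1, and that of the acetyltransferases from 0.03 without saline array 2 to 0.09 without saline array 3. That of the corepressor subunits ran from 0.02 without ethanol array 2 to 0.08 without ethanol array 1, with 0.03 without ethanol array 3, saline array 1 or saline array 2. The median of all genes was 0.02 as deposited. That of the 8464 genes in the members' range of levels was 0.05, with 72.3% of them higher.

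Partners and kinases of class IIa, among them MEF2 factors, calcium-dependent kinases and the Ywha adaptor proteins that hold phosphorylated class IIa enzymes in the cytoplasm, had 17 of 24 higher with a median of 0.06, and 11 of 24 after cyclic loess, where the median was -0.01. Partners and substrates of Hdac6 had 7 of 8 higher with a median of 0.04, and 3 of 8 after quantile normalization or cyclic loess, where the median was -0.02. Bromodomain readers had 15 of 19 higher with a median of 0.06, and 11 of 19 after quantile normalization. Leaving out 1 array, the median of the class IIa partners ran from 0.02 without saline array 2 to 0.09 without saline array 1. That of the Hdac6 partners ran from 0.01 without saline array 2, with 0.02 without ethanol array 2, to 0.07 without ethanol array 1 or saline array 1, and that of the bromodomain readers from 0.03 without saline array 1 or ethanol array 3 to 0.08 without ethanol array 1. Groups did not overlap in 2 of 10 acetyltransferases, 3 of 33 corepressor subunits, 3 of 24 class IIa partners, 2 of 8 Hdac6 partners, 3 of 19 bromodomain readers and 0 of 8 other deacetylases, beside 10.5% of all genes.

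**Figure D5:**
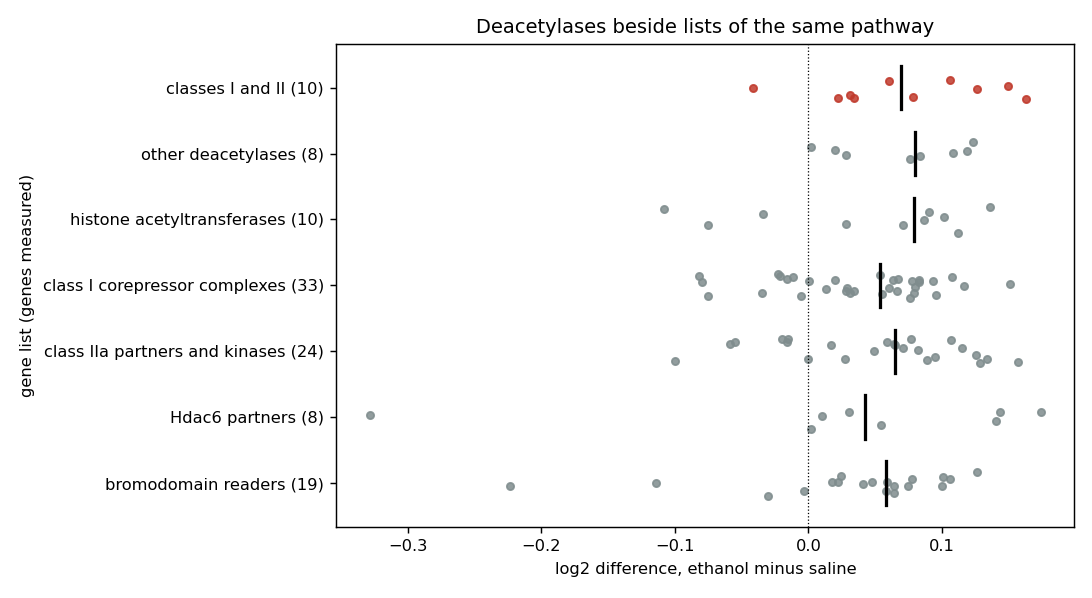
Log2 difference of each gene, ethanol minus saline, for the deacetylases of classes I and II in red and for 6 lists of genes that act with or against them in grey, with the number of measured genes in brackets and black lines at the medians. All medians lie between 0.04 and 0.08 as deposited; after cyclic loess the medians of the Hdac6 partners and the class IIa partners lie at -0.02 and -0.01.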

How the data were processed

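The deposited table held log2 values, which the authors had summarized for each probe row, on 6 arrays of 3 ethanol and 3 saline pools. That scale was inferred from their range and similar quartiles. Background correction, summarization and normalization are not given in the sources used here. Each array took 200 ng of total RNA, per the labels' protocols, and the build is mm 10, per the submitters' processing notes. The platform annotation names 1 gene for 23521 rows, several for 1814 and none here for 16010. Of the first, 23328 had an identifier in the RefSeq table of GRCm38.p6, the source of gene positions and promoters.

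All 41345 rows were fitted together in limma 3.58.1 (R 4.3.3) with lmFit and eBayes, without covariates, and two-sided p-values were Benjamini-Hochberg adjusted over the whole table at 0.05. The fit was tested on simulated data. The residual degrees of freedom were 4 and those of the prior 2.94. The array is the replicate, so p-values speak only of variation among pools, and precision is limited by how many arrays there are. Genes with several rows were represented by the row with the highest mean. Every member is named. From each list of pathway genes up to 3 genes with the smallest p were taken and printed where the unadjusted p was under 0.05, and the 3 genes most like the member with the widest range were named. The members and lists were chosen with earlier results of these data known. The motifs, the promoters shown and the marker genes printed were chosen after their sequences or values were seen. Alternatives covered scaling, the prior, filters, array weights, a replicate block, thresholds and leaving out each array.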

Additional observations from a re-analysis of the deposited data

How the results depend on the processing

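Under 16 alternative fits, 149 of 160 member differences kept their direction, and none passed the adjusted threshold of limma. Fits that changed only the prior, the rows kept or the replicate block leave a member's difference as it was by construction. Their directions could not turn, so the count of 149 is no measure of robustness. The 11 others changed sign. After quantile normalization Hdac2 was at -0.0352 and Hdac4 at -0.0323, and after cyclic loess they were at -0.0433 and -0.0322. Without array 2 of both groups, chosen after seeing the data, Hdac2 was at -0.0226 and Hdac3 at -0.0173. Leaving out 1 array, Hdac2 ran from -0.00497 (without ethanol array 2) to 0.0658, Hdac3 from -0.000295 (without saline array 2) to 0.171, Hdac4 from -0.0859 (without saline array 3) to 0.0783, with -0.0114 without ethanol array 2, and Hdac10 from -0.0113 (without ethanol array 3) to 0.0605. The cause was not tested.

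Limma called 0 of the members under every alternative run. Leaving out 1 array, it called 0 to 1 rows, the 1 without saline array 3. Rows with an unadjusted p under 0.05 numbered 1604 without ethanol array 2 to 3846 without saline array 1, beside 2290 on all arrays. Members among them numbered 0 to 1, the 1 being Hdac1 without ethanol array 3. Such rows numbered 1132 among rows above the median level, 1200 among rows naming 1 gene and 450 at an unadjusted p under 0.01, where fewer rows can enter by construction. With the replicate number as a block there were 2351 rows at an unadjusted p under 0.05 and 0 called, and Hdac1 was at 0.16 ± 0.11 (SE; adjusted p = 0.902 in limma). Deviations of same-numbered arrays from their group means correlated at 0.101, -0.0564 and 0.0380 across rows. Those of differently numbered arrays ran from -0.128 to 0.0992. Deviations within a group sum to 0 in each row, so this is a weak check and cannot settle pairing. The labels name no covariate, and the main fit took no pairs. A second row per member could not be tried, as each member had 1.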
